A study of Homo sapiens with 20 samples.

Results

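The genes of cholesterol synthesis, its control, and cholesterol uptake, transport, efflux and storage were followed as a group of 31 genes, taken by symbol from the 28051 genes listed for the RNAseq libraries. They comprised 8 genes of the mevalonate pathway, 11 enzymes that lead from squalene synthesis to cholesterol, 5 genes of SREBP control, 2 of uptake and transport, and 5 of efflux, LXR signalling and esterification. HL60 is a human acute myeloid leukemia cell line of promyelocyte type that matures towards neutrophils under all-trans retinoic acid (ATRA). HK3-null cells carry a CRISPR/Cas9 disruption of hexokinase 3, and Cas9 control cells express the nuclease, so Cas9 was shared by all groups. Both were kept for 36 h in 1 µM ATRA, itself dissolved in DMSO, or in 0.01% DMSO, with 3 RNAseq libraries in each of the 4 groups and 2 ATACseq libraries in each.

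Edited lines were made with a lentiviral vector that carries Cas9 and were grown as single clones, so the effect of the HK3 disruption and a difference between clones cannot be told apart. The labels do not say that the replicates of a genotype came from separate clones, and the p-values measure the spread between these cultures. Normalized totals ran from 29053838 to 31548189 counts per library, and the depth before scaling was estimated at 22700000 to 37000000. HK3 itself had 90, 65 and 105 normalized counts in Cas9 DMSO, 344, 302 and 346 in HK3-null DMSO, 1305, 1298 and 1850 in Cas9 ATRA, and 1384, 1285 and 1975 in HK3-null ATRA. The HK3 transcript was thus not lower in the HK3-null libraries, and its level does not check the edit. The 8 promyelocyte markers summed to between 564495 and 851553 normalized counts in every library. MPO made up most of this, and single markers went different ways. CTSG had means of 11932 in Cas9 DMSO, 1906 in Cas9 ATRA, 3461 in HK3-null DMSO and 736 in HK3-null ATRA. CEBPA was higher in HK3-null, with means of 21530 against 12573 in DMSO and 18316 against 13194 in ATRA. The 4 markers of the ATRA response summed to 33 to 43 in Cas9 DMSO and 516 to 575 in HK3-null DMSO. In ATRA they summed to 8509 to 9298 in Cas9 control and 40280 to 49338 in HK3-null. TGM2 made up most of the HK3-null ATRA sum, with a mean of 33889 against 1047 in Cas9 ATRA. The means of ITGAM, CD38 and DHRS3 were 1134, 5509 and 1292 in Cas9 ATRA and 1739, 7178 and 1655 in HK3-null ATRA. The 7 markers of other cell types summed to 63 to 374 in Cas9 DMSO, 163 to 214 in Cas9 ATRA, 497 to 576 in HK3-null DMSO and 1248 to 1491 in HK3-null ATRA, with the B cell marker MS4A1 at 0 throughout. PECAM1, which myeloid cells also carry, made up most of this sum outside Cas9 DMSO replicate 1, where the collagen gene COL1A1 had 321 counts against 7 to 33 in the other libraries. The part of these marker differences in the results below was not tested. Without Cas9 DMSO replicate 1, 17 cholesterol genes passed the test for ATRA in Cas9 control and 19 for genotype in DMSO, against 16 and 20 with it. Shares of all tested genes were not read without this library.

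Cholesterol is built from acetyl-CoA through mevalonate, isoprenoid units and squalene, which is closed into a ring and trimmed to cholesterol. SREBP proteins, escorted by SCAP and held back by INSIG proteins when sterol is plentiful, drive transcription of the synthesis enzymes. Oxysterols that accumulate when sterol is abundant activate the LXR receptors, which drive export through ABCA1 and ABCG1, and SOAT1 stores cholesterol as esters.

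Synthesis enzymes stood highest in HK3-null DMSO and lowest in Cas9 ATRA, and efflux and storage genes mostly stood the other way round. For each library, the median over the 19 synthesis enzymes was taken of log2(normalized count + 1) relative to the Cas9 DMSO mean. This median was -0.09, 0.10 and 0.02 in Cas9 DMSO, -0.62, -0.52 and -0.43 in Cas9 ATRA, 0.50, 0.42 and 0.83 in HK3-null DMSO, and -0.04, 0.11 and 0.35 in HK3-null ATRA. The libraries of Cas9 ATRA lay below all others and those of HK3-null DMSO above all others, while HK3-null ATRA overlapped Cas9 DMSO. NPC1L1, the intestinal sterol importer, had at most 1 normalized count in any library and was not tested, which left 30 of the 31 genes among 13256 tested genes. A gene passed at a Benjamini-Hochberg adjusted p under 0.05 in limma over all tested genes.

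**Figure D1:**
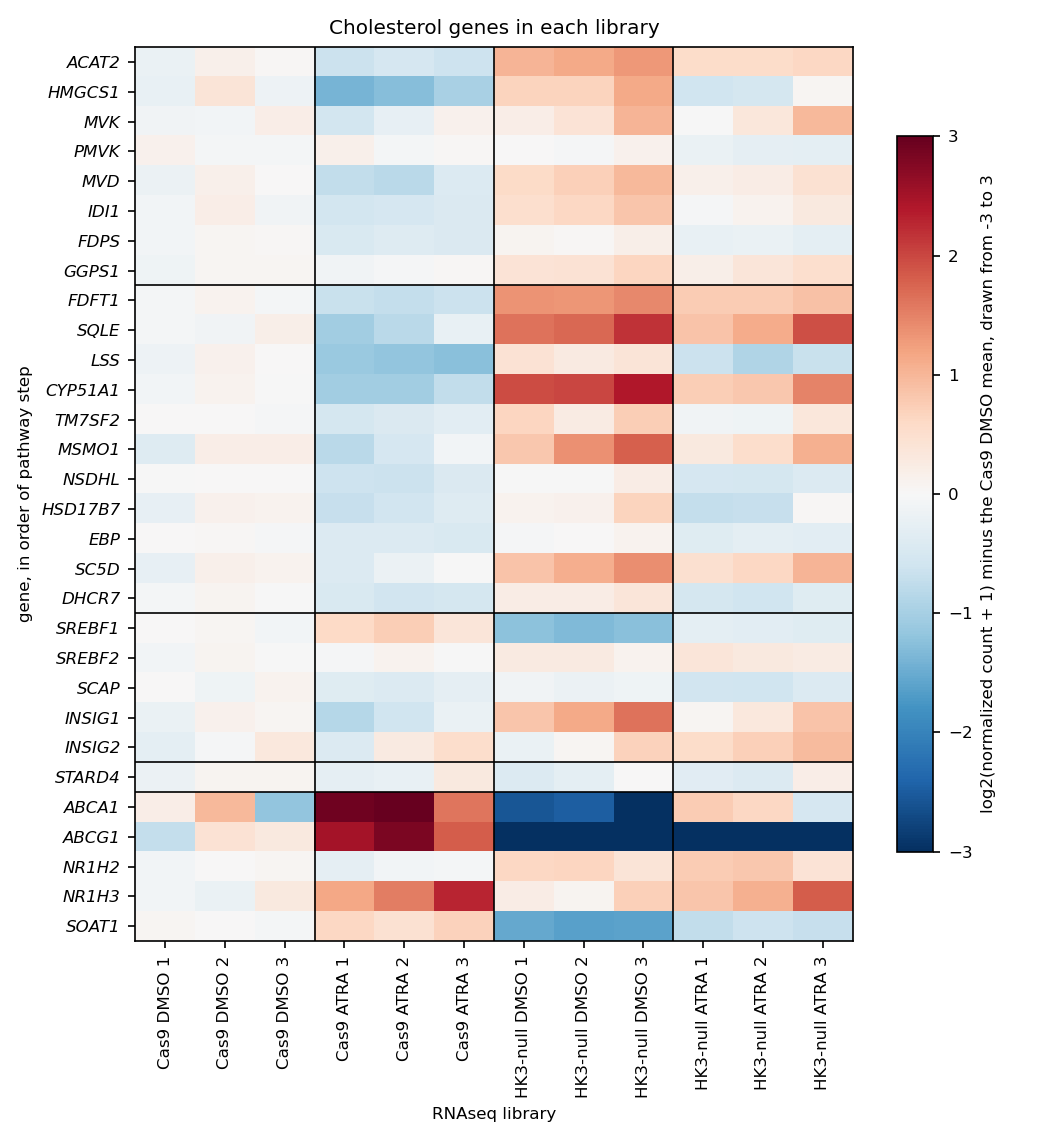
Heat map of the 30 tested cholesterol genes (rows, by pathway step) in the 12 RNAseq libraries (columns), coloured by log2(normalized count + 1) minus the Cas9 DMSO mean and drawn from -3 to 3. Synthesis enzymes, in the upper 2 blocks, are mostly blue in Cas9 ATRA and red in HK3-null DMSO, while ABCA1, ABCG1 and SOAT1 are red in Cas9 ATRA and blue in HK3-null DMSO.

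Short stretches before the start sites of 5 members are shown, because most synthesis genes read here hold a promoter element that was not used to choose them. RefSeq promoter windows on GRCh38.p14, from 250 bases before to 50 after a start, were matched by symbol for 27 of the 31 members (not ACAT2, FDFT1, SQLE and ABCG1). NF-Y is a general promoter factor known to act beside SREBP, and its box is CCAAT, read on both strands. Of the 16 synthesis enzymes with a window, 14 (87.5%) held the box. So did 6 of the other 11 members (54.5%) and 39.7% of all 27305 genes with a window. CYP51A1 and PMVK had no box, while NSDHL and EBP, with no genotype difference past the test, had 5 and 3. A link between the box and expression was not tested. Counted by window, since some genes have several, the box stood in 16 of 23 synthesis windows (69.6%) and in 34.6% of all 35116 windows. The sterol regulatory element was searched as TCACNCCAC on both strands, which 1.39% of all genes held. SREBF2, the gene for the SREBP that acts mainly on cholesterol synthesis, was the only member of the 27 with this match. The LXR element of the DR4 type, searched as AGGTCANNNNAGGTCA on both strands, was found in no member and in 0.0256% of all genes. In the lines that follow, all 5′ to 3′ along the gene, capitals mark the NF-Y box on either strand and, in SREBF2, also the sterol regulatory element.
HMGCS1, chr5:43313483-43313592, minus strand, from 180 to 71 bases before the start: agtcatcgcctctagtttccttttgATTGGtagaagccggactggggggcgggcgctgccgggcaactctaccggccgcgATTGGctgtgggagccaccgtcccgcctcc
MSMO1, chr4:165327459-165327664, plus strand, from 210 to 5 bases before the start: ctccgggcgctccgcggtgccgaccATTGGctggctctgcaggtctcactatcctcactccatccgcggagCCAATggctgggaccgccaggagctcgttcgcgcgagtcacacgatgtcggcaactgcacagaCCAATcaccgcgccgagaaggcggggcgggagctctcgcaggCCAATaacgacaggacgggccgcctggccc
INSIG1, chr7:155297683-155297737, plus strand, from 195 to 141 bases before the start: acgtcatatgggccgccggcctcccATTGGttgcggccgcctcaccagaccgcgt
SREBF2, chr22:41832947-41833028, plus strand, from 158 to 77 bases before the start: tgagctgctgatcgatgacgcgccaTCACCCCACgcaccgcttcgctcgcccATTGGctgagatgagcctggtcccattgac
SOAT1, chr1:179293687-179293741, plus strand, from 110 to 56 bases before the start: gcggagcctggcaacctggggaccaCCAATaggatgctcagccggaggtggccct
A match is a description of the letters and not evidence of binding, and no match says only that these letters are not in the window.

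In Cas9 control cells, ATRA lowered synthesis enzymes and raised efflux and storage genes. Of the 30 tested members, 12 (40%) were lower in ATRA, against 21.3% of all tested genes, and 4 (13.3%) were higher, against 20.3%. All 12 but SCAP were synthesis enzymes, 5 of the mevalonate pathway and 6 of the later steps, and none of the 19 listed was higher. LBR, a sterol reductase read with the neighbouring lists, rose by 1.48 (adjusted p = 4.36e-09). In these bulk libraries, fewer cells that carry a transcript and less of it per cell cannot be told apart. The median log2 fold change was -0.42 over the 30 members and -0.52 over the 19 synthesis enzymes, beside 0.00 over all tested genes. The 4 higher genes were ABCA1, NR1H3, SOAT1 and SREBF1.

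In HK3-null cells, ATRA lowered 16 of the 30 members (53.3%), against 25.1% of all tested genes, and raised 4 (13.3%), against 24.0%. The 4 raised genes were again ABCA1, NR1H3, SOAT1 and SREBF1, and 14 of the 16 lowered genes were synthesis enzymes, the others being SCAP and INSIG1. The median log2 fold change was -0.40 over the members and -0.54 over synthesis enzymes, beside 0.01 over all tested genes. The Cas9 and HK3-null responses share no library. Of the 30 members, 26 had the same sign in both, and all 16 that passed in both did so in the same direction. How many of all tested genes agree in this way was not counted, so the agreement is not shown to be particular to the members.

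The same replicate numbers deviated together across groups, so direction was also read within the 3 numbered pairs. In Cas9 control, 17 of 19 synthesis enzymes were lower in ATRA in all 3 pairs (not PMVK and GGPS1), against 36.2% of tested genes. In HK3-null, all 19 were lower in all 3 pairs, against 37.9% of tested genes.

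**Figure D2:**
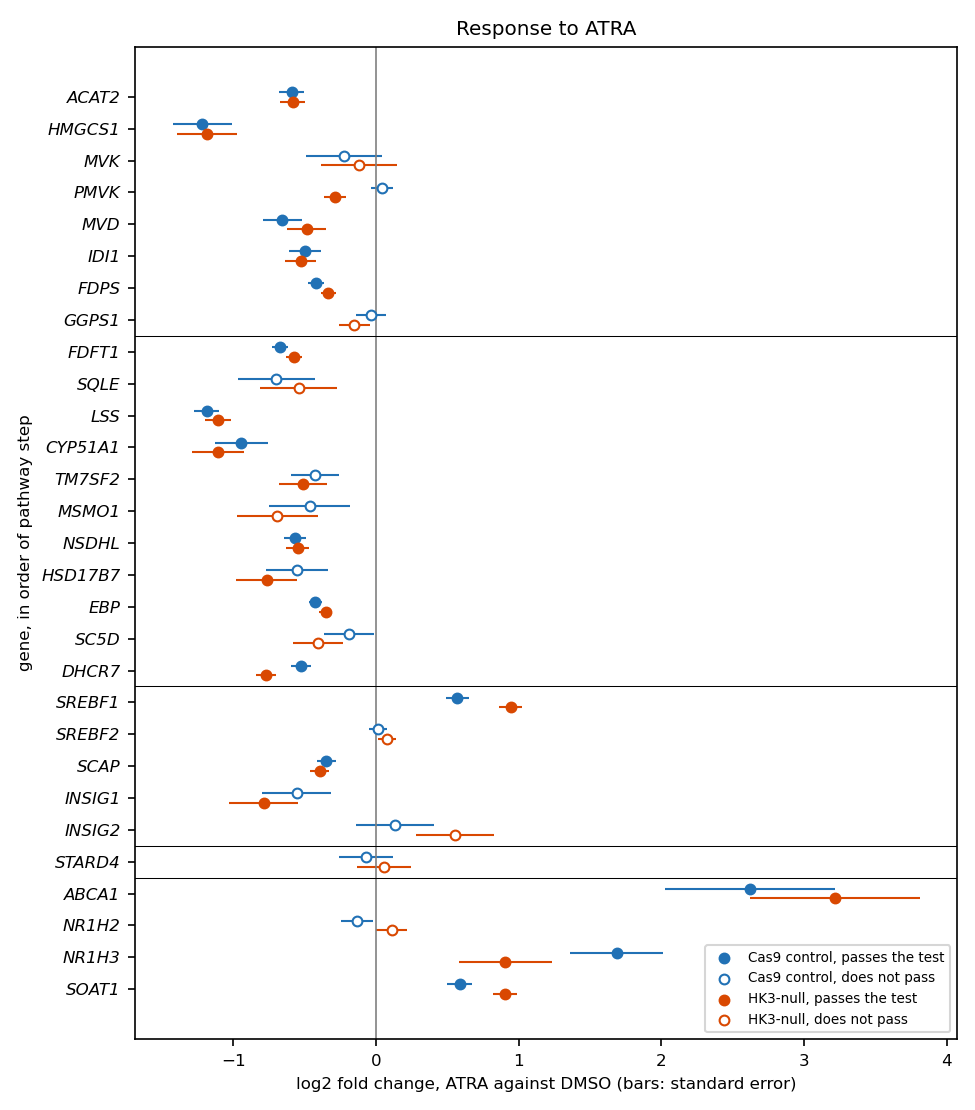
Log2 fold change of ATRA against DMSO for 29 cholesterol genes (rows, by pathway step) in Cas9 control (blue) and HK3-null (orange), with standard errors as bars and filled points for genes past the test. ABCG1 is left out because it was at 0 in all HK3-null libraries. Nearly all synthesis enzymes lie left of 0 in both genotypes, and ABCA1 lies farthest to the right, at 2.62 and 3.21.

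Between genotypes in DMSO, synthesis enzymes were higher in HK3-null cells. Of the 30 members, 16 (53.3%) were higher, against 27.9% of all tested genes, and 4 (13.3%) were lower, against 27.1%. The 16 comprised 13 of the 19 synthesis enzymes with INSIG1, SREBF2 and NR1H2, and the 4 lower genes were ABCA1, ABCG1, SOAT1 and SREBF1. ABCG1 was at 0 in all HK3-null libraries and met the filter on low values only in Cas9 ATRA. Its direction was therefore not free of that filter. The median log2 fold change was 0.35 over the members and 0.55 over synthesis enzymes, beside 0.00 over all tested genes. Within numbered pairs, 14 of 19 synthesis enzymes were higher in HK3-null in all 3, against 40.5% of tested genes.

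In ATRA the genotype difference had much the same members. Of the 30, 16 (53.3%) were higher in HK3-null, against 29.6% of all tested genes, and 6 (20%) were lower, against 29.5%. Again 13 synthesis enzymes were higher, and PMVK was lower. ABCG1 was among the 6 lower members, with the limit given above. The median log2 fold change was 0.41 over the members and 0.62 over synthesis enzymes, beside 0.01 over all tested genes. Within pairs, 16 of 19 synthesis enzymes were higher in all 3, against 41.6% of tested genes. The DMSO and ATRA comparisons of genotype share no library but compare the same lines. In both, 28 of 30 members had the same sign, and all 19 that passed in both had the same direction. The matching share of all tested genes was not counted here either.

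A difference between the genotypes in the ATRA response (the interaction term) passed for 0 of 30 members, against 9.12% of all tested genes, with 4 members at an unadjusted p under 0.05. Results with the replicate number as a block were read for the cholesterol genes only, without a share of all tested genes. An excess or lack of members there can therefore not be judged. With this block, 3 members passed. These were NR1H3, with a smaller rise in HK3-null (log2 difference -0.78, adjusted p = 0.0344), PMVK (-0.33, adjusted p = 0.0177) and SREBF1, with a larger rise in HK3-null (0.37, adjusted p = 0.0174).

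The mevalonate pathway builds isoprenoid units from acetyl-CoA. HMGCS1, which condenses acetoacetyl-CoA and acetyl-CoA, had 6127, 9308 and 6410 normalized counts in Cas9 DMSO, 2740, 2936 and 3626 in Cas9 ATRA, 11293, 11435 and 15680 in HK3-null DMSO, and 4735, 4945 and 7406 in HK3-null ATRA. Its libraries in ATRA lay below those in DMSO in both genotypes, with a log2 fold change of -1.22 ± 0.21 (SE) in Cas9 control (adjusted p = 0.000752) and -1.18 ± 0.21 in HK3-null (adjusted p = 0.000644). It was higher in HK3-null by 0.82 ± 0.21 on the log2 scale in DMSO (adjusted p = 0.00591) and by 0.86 ± 0.21 in ATRA (adjusted p = 0.00416).

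ACAT2, the cytosolic acetoacetyl-CoA thiolase, had 3446, 4381 and 4065 normalized counts in Cas9 DMSO, 2533, 2759 and 2580 in Cas9 ATRA, 8026, 8682 and 9664 in HK3-null DMSO, and 5743, 5766 and 6045 in HK3-null ATRA. The 4 groups did not overlap at all for this gene. Its log2 fold change with ATRA was -0.59 ± 0.09 in Cas9 control (adjusted p = 0.000295) and -0.58 ± 0.09 in HK3-null (adjusted p = 0.000211), and its genotype difference was 1.15 ± 0.09 in DMSO (adjusted p = 8.12e-07).

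MVD, which decarboxylates mevalonate diphosphate, had 779, 984 and 890 normalized counts in Cas9 DMSO, 531, 500 and 657 in Cas9 ATRA, 1317, 1452 and 1732 in HK3-null DMSO, and 972, 1024 and 1212 in HK3-null ATRA. IDI1, which interconverts the isoprenoid units, had 2237, 2742 and 2213 in Cas9 DMSO, 1624, 1669 and 1774 in Cas9 ATRA, 3368, 3695 and 4234 in HK3-null DMSO, and 2314, 2583 and 2941 in HK3-null ATRA. Both genes passed in all 4 comparisons, lower with ATRA and higher in HK3-null. For MVD the fall with ATRA in HK3-null (-0.49 ± 0.14, adjusted p = 0.0122) no longer passed without HK3-null DMSO replicate 3 (adjusted p = 0.0523).

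The other mevalonate genes passed in fewer comparisons. FDPS, which makes farnesyl diphosphate, was lower with ATRA in both genotypes (log2 fold change -0.42 and -0.33), and its genotype difference of 0.19 in ATRA passed (adjusted p = 0.012). That call was lost with quantile normalization (0.10, adjusted p = 0.177), equal totals (adjusted p = 0.0564) or chromosome medians subtracted (adjusted p = 0.0506). GGPS1, which makes the geranylgeranyl donor of protein prenylation, was higher in HK3-null by 0.50 in DMSO and 0.38 in ATRA and did not pass for ATRA in either genotype. MVK, mevalonate kinase, passed in no comparison, and with the replicate block it passed for genotype in DMSO (log2 fold change 0.55, adjusted p = 0.000826) and in ATRA (0.65, adjusted p = 0.00023). PMVK, the next kinase, was lower with ATRA in HK3-null (-0.29, adjusted p = 0.00941) and was the only synthesis enzyme past the test that was lower in HK3-null (-0.30 in ATRA, adjusted p = 0.00602).

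From squalene on, CYP51A1 and SQLE had the largest genotype differences among synthesis enzymes before chromosome medians were subtracted, while after subtraction SQLE, on chromosome 8, stood in DMSO below HMGCS1, MSMO1, SC5D and MVD as well as CYP51A1. CYP51A1, the lanosterol demethylase, had 1102, 1247 and 1152 normalized counts in Cas9 DMSO, 563, 567 and 697 in Cas9 ATRA, 4493, 4661 and 6163 in HK3-null DMSO, and 1956, 2031 and 3253 in HK3-null ATRA. No library of any group fell within the range of another group. It was 4.34-fold higher in HK3-null in DMSO (log2 fold change 2.12 ± 0.18, adjusted p = 2.24e-06) and 3.87-fold higher in ATRA (adjusted p = 3.51e-06), and ATRA lowered it in Cas9 control (-0.94 ± 0.18, adjusted p = 0.00174) and in HK3-null (-1.11 ± 0.18, adjusted p = 0.000421).

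SQLE, squalene epoxidase and a control point of the later pathway, had 1450, 1417 and 1704 normalized counts in Cas9 DMSO, 738, 860 and 1295 in Cas9 ATRA, 4715, 5022 and 6849 in HK3-null DMSO, and 2765, 3270 and 5809 in HK3-null ATRA. Every HK3-null library lay above every Cas9 library, and replicate 3 was the highest in each group. It was higher in HK3-null by 1.84 ± 0.27 on the log2 scale in DMSO (adjusted p = 0.000138) and by 2.0 ± 0.27 in ATRA (adjusted p = 6.37e-05). The ATRA difference did not pass in Cas9 control (-0.70 ± 0.27, adjusted p = 0.0592) or in HK3-null (-0.54 ± 0.27, adjusted p = 0.12). It passed in both with the replicate block (adjusted p = 0.000606 and 0.00256), and SQLE was lower in ATRA in all 3 numbered pairs of each genotype.

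FDFT1, squalene synthase, had 5708, 6358 and 5656 normalized counts in Cas9 DMSO, 3721, 3612 and 3777 in Cas9 ATRA, 15126, 14789 and 16016 in HK3-null DMSO, and 10025, 10054 and 10779 in HK3-null ATRA. Replicates were close and the groups did not overlap, with a log2 fold change between genotypes of 1.38 ± 0.06 in DMSO (adjusted p = 5.62e-09) and 1.47 ± 0.06 in ATRA (adjusted p = 3.9e-09). With ATRA it changed by -0.67 ± 0.06 in Cas9 control and -0.57 ± 0.06 in HK3-null (adjusted p = 3.37e-06 and 6.69e-06).

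LSS, lanosterol synthase, which closes the sterol rings, had 4557, 5600 and 5168 normalized counts in Cas9 DMSO, 2336, 2256 and 2120 in Cas9 ATRA, 6890, 6105 and 6693 in HK3-null DMSO, and 3276, 2708 and 3178 in HK3-null ATRA. Here the ATRA response was the larger difference. It was -1.19 ± 0.09 in Cas9 control (adjusted p = 1.6e-06) and -1.11 ± 0.09 in HK3-null (adjusted p = 1.64e-06), while the genotype difference was 0.36 ± 0.09 in DMSO (adjusted p = 0.00511) and 0.45 ± 0.09 in ATRA (adjusted p = 0.00127).

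MSMO1 and SC5D, a sterol methyl oxidase and a desaturase, were higher in HK3-null in both treatments. MSMO1 had 951, 1423 and 1415 normalized counts in Cas9 DMSO, 711, 872 and 1176 in Cas9 ATRA, 2163, 3194 and 4333 in HK3-null DMSO, and 1511, 1803 and 2619 in HK3-null ATRA. SC5D had 872, 1149 and 1128 in Cas9 DMSO, 789, 929 and 1040 in Cas9 ATRA, 1871, 2212 and 2738 in HK3-null DMSO, and 1456, 1597 and 2101 in HK3-null ATRA. In either treatment, all HK3-null libraries lay above all Cas9 libraries for both genes. MSMO1 was higher in HK3-null by 1.32 ± 0.29 in DMSO (adjusted p = 0.00216) and 1.10 ± 0.29 in ATRA (adjusted p = 0.00614), and SC5D by 1.11 ± 0.18 and 0.89 ± 0.18 (adjusted p = 0.000248 and 0.00103). Neither passed for ATRA in either genotype. With the replicate block both did, with log2 fold changes in Cas9 control of -0.46 for MSMO1 (adjusted p = 0.00191) and -0.19 for SC5D (adjusted p = 0.0376), and in HK3-null of -0.69 (adjusted p = 0.000103) and -0.40 (adjusted p = 0.000447).

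DHCR7, which performs the last reduction to cholesterol, had 4582, 5063 and 4706 normalized counts in Cas9 DMSO, 3464, 3196 and 3311 in Cas9 ATRA, 5622, 5545 and 6108 in HK3-null DMSO, and 3297, 3137 and 3729 in HK3-null ATRA. HSD17B7, a sterol ketone reductase, had 324, 421 and 415 in Cas9 DMSO, 237, 258 and 293 in Cas9 ATRA, 416, 421 and 608 in HK3-null DMSO, and 233, 237 and 392 in HK3-null ATRA. In ATRA, the levels of both genes overlapped between genotypes. DHCR7 fell by 0.52 in Cas9 control and by 0.77 in HK3-null on the log2 scale (adjusted p = 0.000129 and 4.08e-06), and was higher in HK3-null in DMSO by 0.27 (adjusted p = 0.0072). HSD17B7 fell by 0.77 in HK3-null (adjusted p = 0.0116), and its difference of -0.55 in Cas9 control did not pass (adjusted p = 0.0592). It passed with the block (adjusted p = 0.00334), with quantile normalization (adjusted p = 0.0218), on log2(normalized count + 1) (adjusted p = 0.049), with Cas9 libraries alone (adjusted p = 0.027), and without Cas9 DMSO replicate 1, HK3-null ATRA replicate 3 or HK3-null DMSO replicate 3 (adjusted p = 0.0492, 0.0191 and 0.0443).

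NSDHL and EBP, a sterol dehydrogenase and a sterol isomerase on chromosome X, had no genotype difference past the test, with log2 fold changes between 0.03 and 0.10. Both were lower with ATRA in both genotypes, NSDHL by -0.57 and -0.55 and EBP by -0.42 and -0.35. TM7SF2, a sterol reductase, had 75 to 181 normalized counts in all libraries. It was higher in HK3-null by 0.54 in DMSO (adjusted p = 0.0172) and 0.46 in ATRA (adjusted p = 0.0341), and lower with ATRA in HK3-null by -0.51 (adjusted p = 0.0264). Each of these 3 TM7SF2 calls depended on single libraries. For ATRA in HK3-null, the adjusted p was 0.0891, 0.0924, 0.0848 and 0.0974 without HK3-null ATRA replicate 1 or 2 or HK3-null DMSO replicate 1 or 3. For genotype in DMSO it was 0.0587 and 0.0693 without HK3-null DMSO replicate 1 or 3. For genotype in ATRA it was 0.0967, 0.0746 and 0.133 without Cas9 ATRA replicate 1 or 2 or HK3-null ATRA replicate 3, and the log2 fold change without the last was 0.31. In Cas9 control the ATRA difference of TM7SF2 was -0.43 (adjusted p = 0.0629, and 0.0263 with the block).

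**Figure D3:**
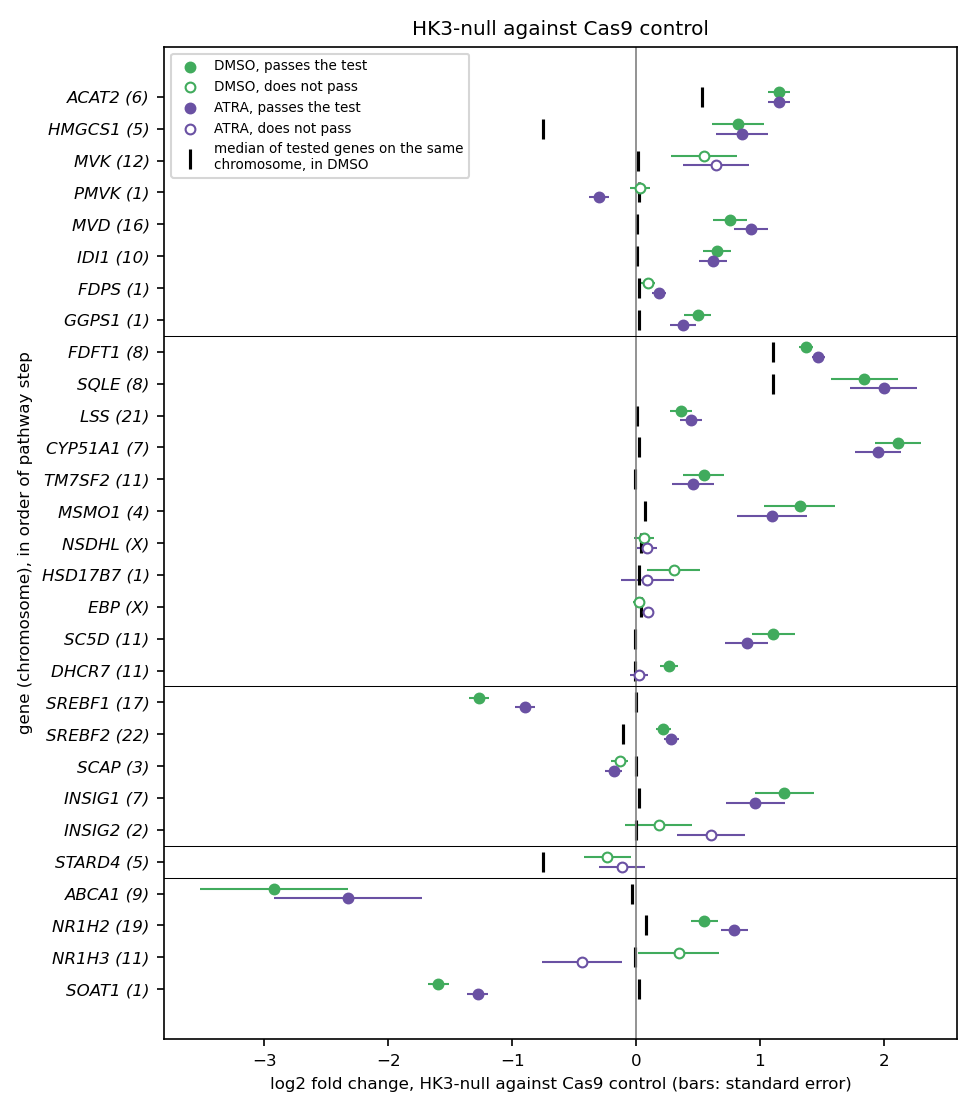
Log2 fold change of HK3-null against Cas9 control for 29 cholesterol genes (rows, by pathway step, chromosome in brackets) in DMSO (green) and ATRA (purple), with standard errors as bars, filled points for genes past the test, and a black tick at the median of the tested genes on the same chromosome in DMSO. Synthesis enzymes lie at or right of their chromosome's tick in DMSO apart from EBP, at 0.03 against 0.04, and ABCA1, SOAT1 and SREBF1 lie far left of theirs.

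In the genotype comparison, some chromosomes had a shifted median. The median log2 fold change in DMSO was -0.75 on chromosome 5, 0.53 on chromosome 6 and 1.11 on chromosome 8. It was -0.58 on chromosome 13 and -0.94 on chromosome 15. Whether a shift covered the whole of a chromosome was not tested, so the median may differ from the shift near a given gene. The members on chromosomes 5 and 8 were HMGCS1, STARD4, FDFT1 and SQLE, and ACAT2 lies on chromosome 6. FDFT1 and SQLE on chromosome 8 were higher by 1.38 and 1.84 in DMSO. Of this, 0.27 and 0.74 remained after the chromosome median was subtracted (adjusted p = 0.00216 and 0.0413). FDFT1 stood above 70.7% and SQLE above 83.0% of the 399 tested genes there. HMGCS1 on chromosome 5 was higher by 0.82 although the median gene of its chromosome was lower, so that it stood 1.57 above that median (adjusted p = 8.91e-05) and above 93.0% of the 541 tested genes there. STARD4, a carrier of cholesterol between membranes, was at -0.23. It stood 0.52 above the same median (adjusted p = 0.0395) and above 79.9% of the genes there. ACAT2 stood 0.62 above the median of chromosome 6 (adjusted p = 0.000149) and above 83.9% of the 608 tested genes there. These adjusted p-values take each chromosome median as fixed and leave out the spread of genes around it.

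Synthesis enzymes away from the shifted chromosomes were also higher in HK3-null. Of the 15 on chromosomes other than 5, 6, 8, 13 and 15, 9 were higher and 0 lower in DMSO, against 26.5% and 24.2% of the 10080 tested genes there. Their median log2 fold change of 0.50 became 0.48 after subtraction, with 9 still higher and 0 lower. In ATRA 9 were higher and 1 lower, against 28.9% and 27.0% of those genes, and after subtraction 8 and 1, with medians of 0.45 before and 0.34 after. The 3 synthesis enzymes on chromosomes 5 and 8 had a median of 1.38 in DMSO before and 0.74 after subtraction. With subtraction over all genes, 17 of 30 members were higher and 4 lower in DMSO, against 25.2% and 24.7% of all tested genes in that fit, and 16 and 6 in ATRA, against 27.2% and 28.4%.

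Among the genes of SREBP control, INSIG1 moved with the synthesis enzymes and SREBF1 moved against them. INSIG1, a sterol-sensing anchor that is itself an SREBP target, had 2373, 2966 and 2822 normalized counts in Cas9 DMSO, 1485, 1789 and 2357 in Cas9 ATRA, 4816, 5941 and 8359 in HK3-null DMSO, and 2818, 3372 and 4894 in HK3-null ATRA. It was higher in HK3-null by 1.20 ± 0.24 in DMSO (adjusted p = 0.00134) and 0.96 ± 0.24 in ATRA (adjusted p = 0.00474), without overlap. With ATRA it was lower in HK3-null (-0.79 ± 0.24, adjusted p = 0.0178), although 1 ATRA library exceeded 1 DMSO library. That call was lost without HK3-null ATRA replicate 1 (adjusted p = 0.0727), without HK3-null ATRA replicate 2 (adjusted p = 0.0549) or without HK3-null DMSO replicate 3 (adjusted p = 0.073). In Cas9 control the difference was -0.56 (adjusted p = 0.0858), which passed with the block (adjusted p = 0.00097).

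SREBF1, whose products act mainly on fatty acid synthesis and which is an LXR target, had 3385, 3536 and 3209 normalized counts in Cas9 DMSO, 5118, 5655 and 4352 in Cas9 ATRA, 1429, 1355 and 1420 in HK3-null DMSO, and 2755, 2724 and 2617 in HK3-null ATRA. The 4 groups did not overlap, and even with ATRA the HK3-null libraries stayed below Cas9 DMSO. SREBF1 was lower in HK3-null by -1.27 ± 0.08 in DMSO (adjusted p = 1.98e-07) and -0.89 ± 0.08 in ATRA (adjusted p = 2.73e-06), and rose with ATRA by 0.57 ± 0.08 in Cas9 control and 0.95 ± 0.08 in HK3-null (adjusted p = 0.000208 and 2.61e-06).

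SREBF2, the SREBP gene with the sterol regulatory element shown above, ran from 10306 to 14051 normalized counts over all libraries. It was higher in HK3-null by 0.22 in DMSO (adjusted p = 0.0121) and 0.29 in ATRA (adjusted p = 0.00243), and it did not pass for ATRA in either genotype. The call in DMSO was lost without Cas9 DMSO replicate 1 (0.18, adjusted p = 0.0538) and without HK3-null DMSO replicate 2 (0.19, adjusted p = 0.0515). SCAP, the escort, was lower with ATRA by -0.35 and -0.40, and its difference of -0.18 between genotypes in ATRA (adjusted p = 0.0404) was lost in 8 of 12 fits that left out a library, where the log2 fold change ran from -0.19 to -0.14 and the adjusted p from 0.0519 to 0.134. With the block, SCAP was also lower in HK3-null in DMSO (-0.13, adjusted p = 0.0162). INSIG2 passed in no comparison, and with the block it was higher with ATRA in HK3-null (0.56, adjusted p = 0.00168) and higher in HK3-null in ATRA (0.61, adjusted p = 0.000796). STARD4 passed in no comparison and ran from 727 to 1188 normalized counts, and with the block its genotype difference in DMSO passed (adjusted p = 0.0492).

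The efflux transporters were lower in HK3-null in both treatments. ABCA1, which loads cholesterol onto apolipoprotein, had 321, 551 and 122 normalized counts in Cas9 DMSO, 2098, 2788 and 855 in Cas9 ATRA, 46, 49 and 22 in HK3-null DMSO, and 474, 427 and 196 in HK3-null ATRA. Replicate 3 was the lowest in every group, and HK3-null ATRA overlapped Cas9 DMSO, with no other overlap. ATRA raised it 6.14-fold in Cas9 control (log2 fold change 2.62 ± 0.60, adjusted p = 0.00445) and 9.28-fold in HK3-null (3.21 ± 0.60, adjusted p = 0.000904). It was 7.58-fold lower in HK3-null in DMSO (-2.92 ± 0.60, adjusted p = 0.0015) and 5.01-fold lower in ATRA (-2.33 ± 0.60, adjusted p = 0.00564).

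ABCG1, its partner in export to lipoproteins, had 4, 10 and 9 normalized counts in Cas9 DMSO and 45, 57 and 28 in Cas9 ATRA, and was at 0 in all 6 HK3-null libraries. Set against 3 counts in a single library, its mean of 43.3 in Cas9 ATRA was at least 12.3-fold higher than in HK3-null ATRA, and its mean of 7.67 in Cas9 DMSO at least 2.08-fold higher than in HK3-null DMSO. These limits cover counting error only. All ATRA libraries of Cas9 control lay above all its DMSO libraries, but the log2 fold change of 2.55 ± 1.53 did not pass in limma with all groups (adjusted p = 0.208, and 0.333 with the block). It passed on log2(normalized count + 1), at 2.38 (adjusted p = 0.000425), without the trend (adjusted p = 0.000376) and with Cas9 libraries alone (adjusted p = 0.00832). Since ABCG1 met the filter on low values only in Cas9 ATRA, its differences are a description.

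**Figure D4:**
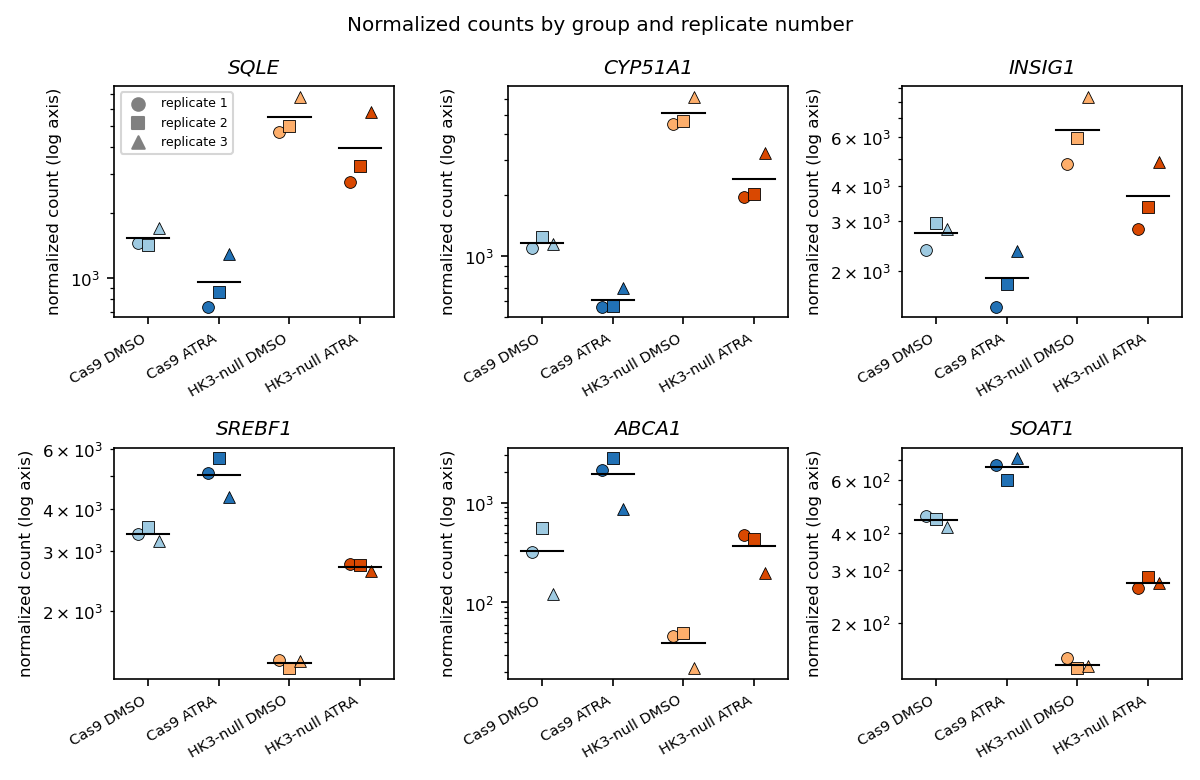
Normalized counts (log axis) of SQLE, CYP51A1, INSIG1, SREBF1, ABCA1 and SOAT1 in the 4 groups, with a symbol for each of the 3 replicate numbers and a line at the group mean. SQLE, CYP51A1 and INSIG1 are highest in HK3-null DMSO, and SREBF1, ABCA1 and SOAT1 are lowest there.

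SOAT1, which esterifies cholesterol for storage, had 454, 446 and 419 normalized counts in Cas9 DMSO, 673, 602 and 711 in Cas9 ATRA, 152, 141 and 143 in HK3-null DMSO, and 261, 284 and 272 in HK3-null ATRA. No groups overlapped. It was 3.03-fold lower in HK3-null in DMSO (-1.60 ± 0.09, adjusted p = 5e-08) and 2.43-fold lower in ATRA (-1.28 ± 0.09, adjusted p = 2.47e-07), and rose with ATRA by 0.59 ± 0.09 in Cas9 control and 0.91 ± 0.09 in HK3-null (adjusted p = 0.000252 and 5.76e-06).

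The genes of the LXR receptors behaved differently from each other. NR1H3, the inducible receptor, had 48, 44 and 63 normalized counts in Cas9 DMSO, 116, 151 and 254 in Cas9 ATRA, 60, 54 and 84 in HK3-null DMSO, and 92, 108 and 181 in HK3-null ATRA. It rose with ATRA by 1.69 ± 0.32 in Cas9 control (adjusted p = 0.00159) and by 0.91 ± 0.32 in HK3-null (adjusted p = 0.037). The latter call was lost in 4 of 12 fits that left out a library, at adjusted p = 0.0552 without HK3-null ATRA replicate 2, 0.144 without HK3-null ATRA replicate 3, 0.0964 without HK3-null DMSO replicate 1 and 0.118 without HK3-null DMSO replicate 2. Quantile normalization (adjusted p = 0.0835) and equal totals (adjusted p = 0.0594) lost it too. Between genotypes it did not pass (0.34 in DMSO, adjusted p = 0.392, and -0.44 in ATRA, adjusted p = 0.269), and with the block it passed in ATRA (adjusted p = 0.0325). NR1H2, the broadly expressed receptor, had 1197, 1274 and 1310 normalized counts in Cas9 DMSO, 1050, 1197 and 1206 in Cas9 ATRA, 1941, 1960 and 1649 in HK3-null DMSO, and 2141, 2211 and 1666 in HK3-null ATRA. All HK3-null libraries of NR1H2 lay above all Cas9 libraries, with log2 fold changes of 0.55 ± 0.11 in DMSO (adjusted p = 0.00131) and 0.79 ± 0.11 in ATRA (adjusted p = 7.71e-05), and ATRA did not change it past the test.

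Chromatin accessibility was read from ATACseq regions that list a member. The deposited set holds 8286 regions, all of which differ between genotypes in ATRA by at least 1.65-fold in mean signal, so that the direction in ATRA is a feature of the selection and no test was made. Of these, 16 regions list 12 members. In DMSO, which did not enter that ratio, both HK3-null libraries lay above both Cas9 libraries in 7 of the 16 regions, against 50.1% of all 8286. They lay below in 8, against 44.6%. The regions were kept for a difference between the same lines in ATRA, so the direction in DMSO is not free of that selection. Positions are given as deposited, on GRCh38, with gene parts from GENCODE v44.

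Regions at the efflux and storage genes had lower signal in HK3-null. ABCG1 had 4 such regions, at chr21:42219764-42220573 (over an exon), chr21:42228020-42228572 and chr21:42234575-42235085 (in introns), and chr21:42313449-42313898 (beyond the gene). Their ratio of HK3-null to Cas9 mean signal in DMSO was 0.135, 0.203, 0.186 and 0.116. Of the 81 regions on chromosome 21, these included, 59.3% were lower in HK3-null in DMSO, with a median ratio of 0.374. The signal of the last, for example, was 69.9 and 99.1 in Cas9 DMSO, 59.4 and 25.5 in Cas9 ATRA, 8.71 and 10.9 in HK3-null DMSO, and 9.71 and 3.33 in HK3-null ATRA. The ABCA1 region, chr9:104927441-104927792, in an intron and centred 539 bases from the gene start, had 41.4 and 21 in Cas9 DMSO, 42.3 and 50.5 in Cas9 ATRA, 13.8 and 12 in HK3-null DMSO, and 8.27 and 11.5 in HK3-null ATRA. The SOAT1 region, chr1:179293463-179294260, covers the promoter stretch shown above and had 126 and 99.8, 153 and 113, 56.8 and 50, and 38.3 and 69.1 in the same order of groups. Of the 282 regions on chromosome 9 and the 498 on chromosome 1, 46.1% and 43.2% were lower in HK3-null in DMSO. For ABCG1, ABCA1 and SOAT1, every HK3-null RNAseq library was below every Cas9 library of the same treatment. This is a description only, since the regions were selected on the genotype difference.

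Regions at CYP51A1, SQLE and FDFT1 had higher signal in HK3-null. The CYP51A1 region, chr7:92133516-92135060, over an exon and centred 515 bases from the gene start, had 91.4 and 94.7 in Cas9 DMSO, 80.6 and 67.7 in Cas9 ATRA, 202 and 212 in HK3-null DMSO, and 114 and 174 in HK3-null ATRA. SQLE (a region centred 141 bases before the gene start) had a DMSO ratio of 2.35, and the FDFT1 regions, centred 1150 and 7052 bases after it, had ratios of 1.77 and 2.26. All 3 lie on chromosome 8, where 94.1% of the 1154 regions were higher in HK3-null in DMSO with a median ratio of 2.35. On chromosome 7, by comparison, 58.3% of 302 regions were higher, with a median ratio of 1.79.

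Elsewhere the signal and the RNA did not always go together. SREBF2 and INSIG2 had intronic regions with DMSO ratios of 2.15 and 2.56. The SREBF1 region, chr17:17819720-17820028, lies over an exon 17128 bases into the gene and had 18.9 and 18.2 in Cas9 DMSO, 7.89 and 10.3 in Cas9 ATRA, 21.6 and 21.7 in HK3-null DMSO, and 48.4 and 33.9 in HK3-null ATRA, while its RNA was lower in HK3-null. DHCR7 had an intronic region with a DMSO ratio of 0.598, although its RNA was higher in HK3-null in DMSO. PMVK had a DMSO ratio of 0.305, for a region outside the gene in GENCODE that overlaps the span of the gene in RefSeq. The GGPS1 region, at 2.3 to 8 in DMSO, overlapped between genotypes there.

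**Figure D5:**
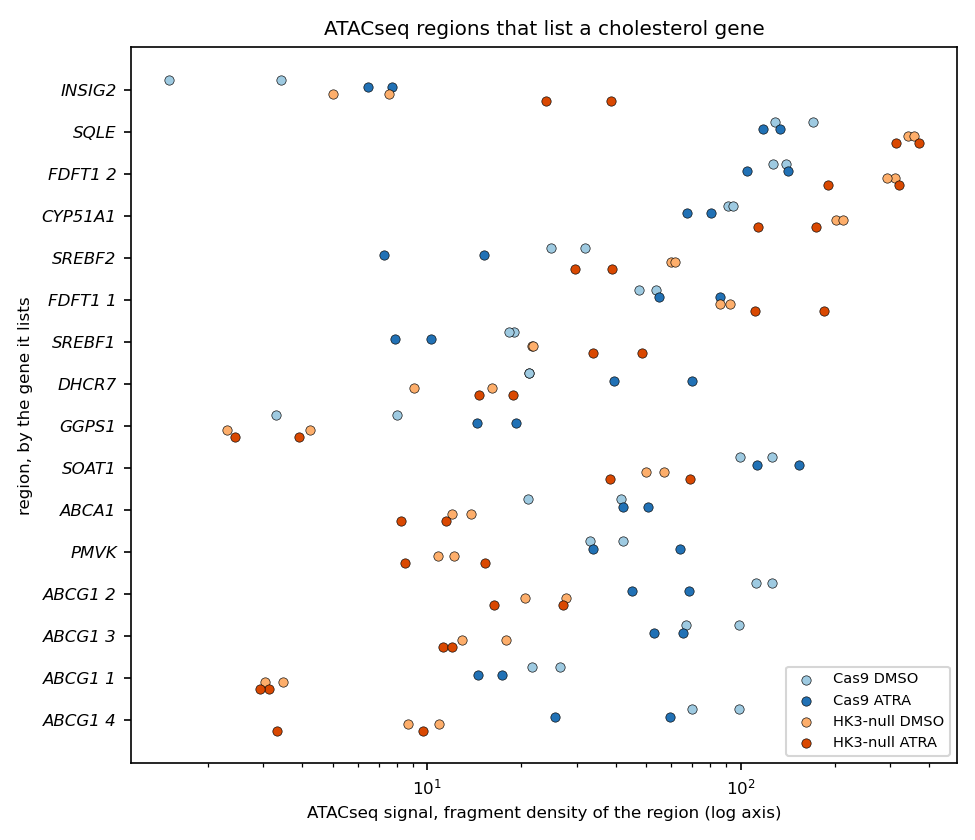
ATACseq signal (fragment density, log axis) of the 16 regions that list a cholesterol gene, in rows ordered by the ratio of HK3-null to Cas9 mean signal in DMSO, with 2 points for each of the 4 groups. The 4 ABCG1 regions lie at the bottom, with ratios of 0.116 to 0.203, and INSIG2 and SQLE lie at the top, with 2.56 and 2.35.

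Neighbouring pathways were read for comparison. Of 11 genes of fatty acid synthesis and desaturation, 6 (54.5%) were lower and 1 higher with ATRA in Cas9 control, against 21.3% and 20.3% of all tested genes, and 9 (81.8%) were lower and 0 higher in HK3-null, against 25.1% and 24.0%. In HK3-null these included FASN, fatty acid synthase (-1.28), SCD, stearoyl-CoA desaturase (-1.20) and the desaturase FADS1 (-0.96), and in Cas9 control ME1, malic enzyme (-1.02), FADS1 (-0.82) and SCD (-0.81). Between genotypes this list was split, with 3 higher and 3 lower in DMSO (27.3% each), close to the 27.9% and 27.1% of all tested genes, and 3 higher and 5 lower in ATRA (27.3% and 45.5%), against 29.6% and 29.5%. ACSS2, acetyl-CoA synthetase, was higher in HK3-null by 2.03 in DMSO and 1.58 in ATRA, and ELOVL5, a fatty acid elongase on shifted chromosome 6, by 0.92 and 0.98, and LPIN1 by 0.67 in DMSO, while the elongase ELOVL6 was lower by -1.24 in ATRA. The median log2 fold change between genotypes was -0.08 in DMSO and -0.22 in ATRA, beside 0.55 and 0.62 for the cholesterol synthesis enzymes, and a difference between the lists was not tested.

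Of 5 other LXR targets, 3 were tested. PLTP, the phospholipid transfer protein, rose with ATRA by 2.88 in Cas9 control and 3.69 in HK3-null and was lower in HK3-null by -1.53 in DMSO and -0.72 in ATRA, and LPCAT3 was lower in HK3-null in ATRA by -0.28. MYLIP passed in no comparison. Of 17 other genes of sterol handling, 16 were tested, with 5 higher and 6 lower with ATRA in Cas9 control, 5 and 7 in HK3-null, 5 higher and 3 lower in HK3-null in DMSO, and 5 and 6 in ATRA. The share higher was 31.2% in all 4 comparisons, against 20.3%, 24.0%, 27.9% and 29.6% of all tested genes, and the share lower was 37.5%, 43.8%, 18.8% and 37.5%, against 21.3%, 25.1%, 27.1% and 29.5%. The late endosomal carrier NPC2 and the sterol reductase LBR rose with ATRA in both genotypes, by 1.84 and 1.48 in Cas9 control and 2.12 and 1.5 in HK3-null. SOAT2, the second esterifying enzyme, at 3 to 36 normalized counts, was also among the 5 higher with ATRA (2.46 and 2.54). It met the filter on low values only in ATRA, so its direction was not free of that filter. LIPA, the lysosomal esterase that frees cholesterol, was lower in HK3-null by -0.91 in DMSO and -1.97 in ATRA, and the membrane carrier GRAMD1A by -1.50 and -1.88. ERLIN2, which takes part in sterol-dependent protein degradation, was higher by 1.38 and 1.37 and lies on shifted chromosome 8.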

How the data were processed

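HL60 HK3-null and Cas9 control cells in ATRA or DMSO were measured by RNAseq (12 libraries, 3 per group) and ATACseq (8 libraries, 2 per group). The RNAseq reads were paired-end from a directional kit and mapped to GRCh38, and the deposited values are log2 of gene counts that the authors scaled between libraries and rounded. Raising 2 to these values gave whole numbers within a relative distance of 3.5e-05, with 0 written as log2 of 0.001, and no scaling by gene length was visible. Per the labels, the authors' tools included DESeq2 and MACS2, and the aligner of the RNAseq reads is not given in the sources used here. The ATACseq signal is the fragment density of merged regions after the authors reduced libraries to equal numbers of fragments, and its depth is unknown.

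Rows without a gene name (330 rows, at most 0.00926% of normalized counts) were left out. Depth before scaling was estimated from gaps and doublings among the whole numbers. Deposited log2 values were fitted in R 4.3.3 with limma 3.58.1 (lmFit, eBayes with a trend) with 4 group means over all 12 libraries, for 13256 genes with a group mean log2 above 3 in at least 1 group. Benjamini-Hochberg adjustment ran over all of them, and a gene passed at an adjusted p under 0.05. Log2 fold changes carry standard errors from this fit. Values in every library are given for members that passed in at least 1 comparison with a fold of at least 1.5, and the others by ranges and counts. From each neighbouring list, up to 3 genes per comparison were named, those with the largest changes past the test without overlap of replicates, with other genes named to account for a small count. On simulated data with 200 changed genes, made for a single comparison of 13256 genes, the fit was tested before use.

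The members and lists were chosen with earlier results of these data known. To see if the replicate numbers pair the libraries, deviations from group means were correlated over 10667 genes. Across groups, the 18 same-number pairs gave 0.178 to 0.631 and the 36 others -0.643 to 0.286, so the numbers were taken as pairing. The main fit does not use this pairing, and neither do its standard errors and p-values. Block results were read for the cholesterol genes only. Fits with the number as a block, other normalizations, filters, a pseudocount of 1, single libraries left out and chromosome medians subtracted were run as alternatives. Chromosomes of genes come from RefSeq, matched by symbol for 25221 of 28051 genes.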

Additional observations from a re-analysis of the deposited data

Results flagged for a closer look

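The response to ATRA differed between genotypes for HK3 and for 5 genes of the neighbouring lists, and for none of the cholesterol genes. This was read from the interaction term in limma without the replicate block, at an adjusted p under 0.05. With the block, read for the cholesterol genes only, 3 of them passed, as given above. HK3 rose less in HK3-null cells, from a higher level in DMSO, with a log2 difference of -1.90 (adjusted p = 0.00202). The elongase ELOVL6 was higher with ATRA in Cas9 control and lower in HK3-null, with a difference of -1.01 (adjusted p = 0.00584). FASN fell further in HK3-null, with a difference of -0.51 (adjusted p = 0.00929). LIPA changed by -0.02 in Cas9 control and -1.08 in HK3-null, a difference of -1.06 (adjusted p = 0.000292). The lipoprotein receptor SCARB1 differed by -0.43 (adjusted p = 0.0112), and TMEM97, a binder of the endosomal sterol carrier, by -0.58 (adjusted p = 0.0144), both falling further in HK3-null.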

How the results depend on the processing

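The 78 calls of a cholesterol gene in a comparison were recomputed in 1602 checks. None changed sign, 1561 stayed past the test and 41 did not, most of them for TM7SF2, SCAP and NR1H3. Of the fits that kept all libraries, quantile normalization and equal totals each lost 3 calls, and log2(normalized count + 1), the higher filter and the replicate block lost 0. The block added calls, giving 22 members against 16 for ATRA in Cas9 control and 24 against 20 in HK3-null, and 23 against 20 and 25 against 22 between genotypes in DMSO and ATRA; beyond the calls named with it, it changed no other call. For the interaction, where 0 passed, 1 passed with equal totals (PMVK), with log2(normalized count + 1) and without the trend (ABCG1 in both), 3 passed with the replicate block, and 0 to 1 when a library was left out (SREBF1 without Cas9 ATRA replicate 2, DHCR7 without HK3-null ATRA replicate 3). A fold of at least 1.5 left 9 members for ATRA in Cas9 control and 10 in HK3-null. A fold of at least 2 left 4 and 4, and 11 and 8 between genotypes in DMSO and ATRA. With a library left out, the counts ran from 16 to 19 and from 17 to 22 for ATRA in Cas9 control and HK3-null, and from 19 to 21 and from 20 to 23 between genotypes. Shares of all tested genes were not read for these settings. The counts in this section therefore show no excess of members over other genes. The 3 replicates per group limit the precision, and low counts (ABCG1, NPC1L1) limit what could be detected.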

Other observations

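Replicate number moved with the level of the synthesis enzymes. Replicate 3 was the highest of the 3 libraries for 13 of 19 synthesis enzymes in Cas9 ATRA, 18 of 19 in HK3-null DMSO and 15 of 19 in HK3-null ATRA, beside 35.7%, 34.5% and 34.7% of all tested genes. In Cas9 DMSO, replicate 2 was the highest for 13 of 19, beside 29.2% of tested genes, and replicate 3 for 4. ABCA1 was lowest in replicate 3 in all 4 groups, and NR1H3 was highest there. The labels do not say what the numbers stand for, and this pattern was noticed in the data and was not tested.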
